A study of Mus musculus with 6 samples.

Results

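The genes described here are the Wnt ligands, their Frizzled and LRP receptors, the secreted Dkk and Sfrp antagonists, the R-spondins, the Axins and the Tcf/Lef factors. They were chosen by gene symbol. Of 45037 probe sets tested on the array, 95 carried one of these symbols and no other, and they stand for 49 of the 18193 genes measured. These are 19 Wnt genes, 10 Fzd genes with Lrp5 and Lrp6, 5 Dkk and 4 Sfrp genes, 4 Rspo genes, Axin1 and Axin2, and Tcf7l1, Tcf7l2 and Lef1. Tcf7 fits the same choice and was not analysed here. The RNA came from E14TG2a, a single mouse embryonic stem (ES) cell line deficient in Hprt, which both groups share, and was hybridised to Affymetrix arrays. The 3 undifferentiated samples were kept in leukaemia inhibitory factor (LIF, 1000 units per ml) and collected by sorting as cells negative for 5T4 at the surface. For the 3 differentiating samples LIF was withdrawn for 3 days, and 5T4-positive cells were collected. Cells of both groups were trypsinised, stained with the 5T4 antibody 9A7 and gated as live. The groups differ both in LIF and in the 5T4 gate, so effects of LIF withdrawal and of the sort cannot be told apart. Whether the replicates were separate cultures is not stated. The p-values set a group difference against the spread of these samples within groups, which may be only technical.

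In the canonical pathway, a secreted Wnt protein binds a Frizzled receptor together with LRP5 or LRP6, the Axin-containing complex that destroys beta-catenin is held back, and beta-catenin acts with Tcf/Lef factors on target genes. Sfrp proteins bind Wnts outside the cell, the Dkk1 protein occupies LRP5 and LRP6, and R-spondins raise the number of receptors at the surface. The other Dkk genes are grouped with the antagonists here by symbol, whether or not they act in this way. In mouse ES cells Tcf7l1 is known as a repressor of pluripotency genes, and Wnt activity is known to help self-renewal. The 5T4 protein, encoded by Tpbg and also called WAIF1, is itself known as an inhibitor of canonical Wnt signalling that acts on LRP6.

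Values are the log2 values that RMA gives, a difference is that between differentiating and undifferentiated means, and a gene is represented by its brightest probe set, that of highest mean over the 6 arrays. A gene passed at an adjusted p under 0.1, from limma with Benjamini-Hochberg adjustment over all probe sets. The identity of the cells was checked on 6 ES cell markers. All 6 had lower values on each differentiating array than on each undifferentiated array. Of all genes, 23.5% were separated in this way in either direction. Klf4, Pou5f1 and Sox2 passed. Zfp42 (log2 fold change -2.64, adjusted p = 0.106), Esrrb (-3.55, adjusted p = 0.123) and Nanog (-0.50, adjusted p = 0.345) did not. Of the undifferentiated arrays, replicate 1 had the lowest mean correlation with its own group (0.9765). Undifferentiated replicate 2 was instead closer to the differentiating arrays than to its own group. Across all probe sets, its mean correlation was 0.9854 with the differentiating arrays and 0.9823 with the other undifferentiated arrays, whereas the other undifferentiated arrays were closer to their own group (0.9765 against 0.966 for replicate 1, and 0.9852 against 0.9778 for replicate 3). At the second Tpbg probe set, for the gene of the sort, its value was 6.54, above 5.60 and 5.50 in replicates 1 and 3 and under 6.94 to 7.52 in the differentiating samples. At the brightest Tpbg probe set it was 6.76, against 5.94 and 5.68, and 6.71 to 7.97 in the differentiating samples. Differentiating replicate 1 had the highest summed level of the 6 ES cell markers in its group, at 62.04 against 57.24 and 53.63 (68.33 to 71.83 in undifferentiated cells), and the highest lower quartile of all arrays (4.26 against 4.07 to 4.10). Calls among the 49 genes that changed without either array are therefore given with and without it. Both arrays were singled out from these same values, so a call gained by leaving one out is no independent support.

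Fzd5, which encodes a Frizzled receptor, fell in the differentiating 5T4-positive cells and was the only one of the 49 genes to pass the test. Its values were 10.00, 9.69 and 10.62 in undifferentiated replicates 1 to 3 and 8.45, 8.59 and 8.24 in differentiating replicates 1 to 3. The groups did not overlap, and the distance between the closest arrays of the groups was larger than the range within either group. The means were 10.10 ± 0.47 (SD, n = 3) and 8.43 ± 0.18 (SD, n = 3), 3.19-fold lower in differentiating cells (log2 fold change -1.67, 95% interval -2.25 to -1.10, standard error 0.24, with an adjusted p = 0.059 in limma). An exact two-sided permutation test of 3 against 3 arrays gave p = 0.1, the smallest it can give. The second Fzd5 probe set had 8.64, 7.41 and 7.99 in undifferentiated and 7.38, 7.05 and 6.42 in differentiating cells, in the same direction without passing (log2 fold change -1.06, adjusted p = 0.261). In sorted cells measured in bulk, fewer cells that express a gene and less RNA per cell cannot be told apart. The call was lost without undifferentiated replicate 3 (adjusted p = 0.176), differentiating replicate 2 (adjusted p = 0.29) or differentiating replicate 3 (adjusted p = 0.257), with fold changes of 2.67 to 3.38. Those fits called 0 to 3 of all 18193 genes. Without undifferentiated replicate 2, Fzd5 was 3.68-fold lower (adjusted p = 0.0324).

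Among the 49 genes, 1 passed as lower (1.45% of all genes at their brightest probe set passed as lower) and 0 passed as higher (0.797%). At an unadjusted p under 0.05 in limma, 6 were higher and 1 was lower, together 14.3% of the 49 against 17.2% of all genes. Separation, with every array of a group on the same side of every array of the other, was found for 8 of the 49 genes, or 16.3%, and for 23.5% of all genes. A log2 fold change of at least 1 in size was reached by 5 of them, or 10.2%, against 4.11% of all genes. These 5 are Fzd5, Fzd2, Fzd6, Sfrp2 and Wnt4, and they had 2-fold differences or more without all being called. The median log2 fold change was 0.12 over the 49 genes and 0.02 over all genes. The other 44 had log2 fold changes between -0.59 and 0.66.

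**Figure D1:**
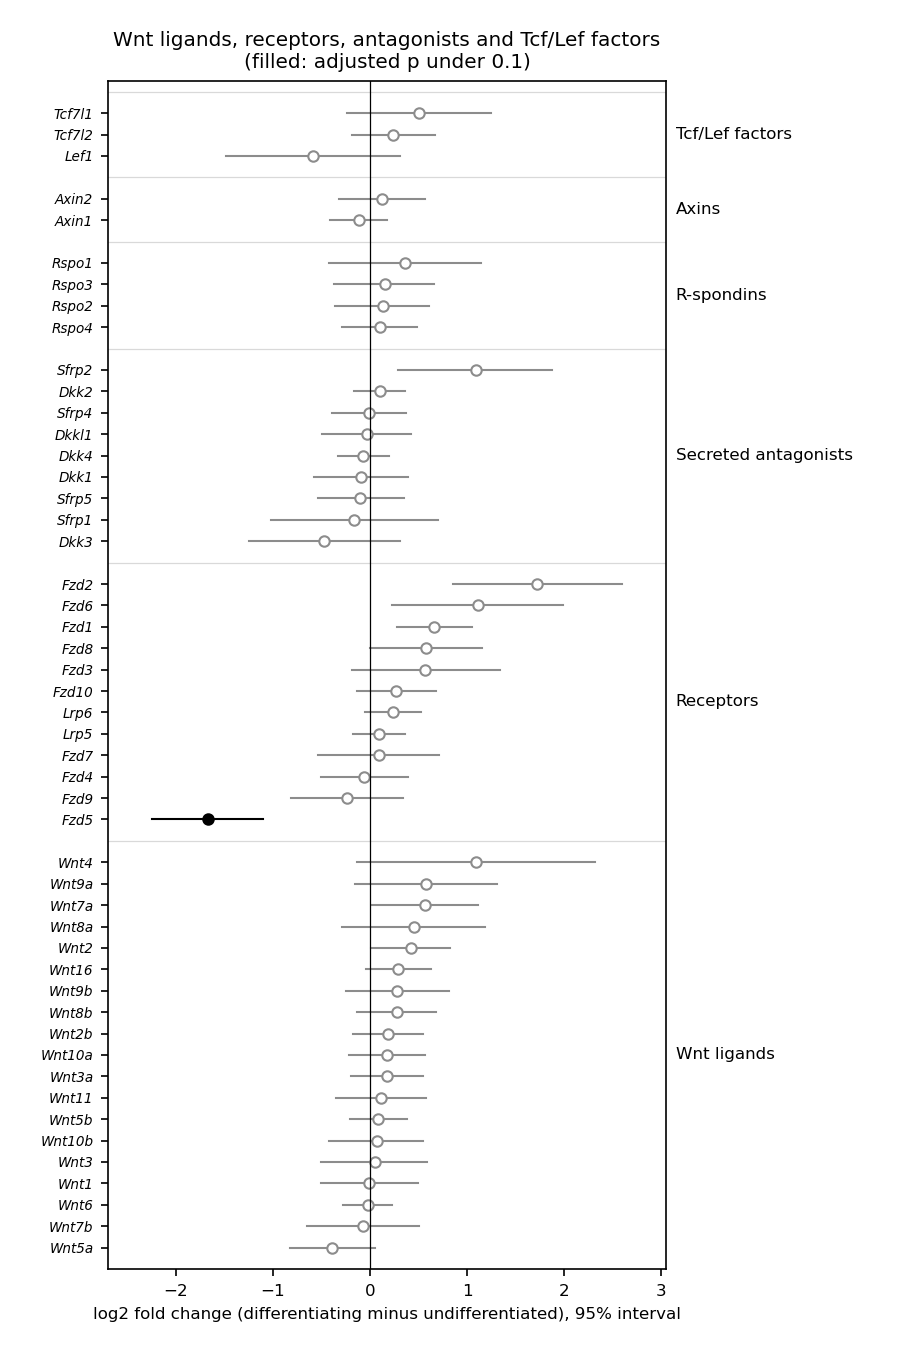
The 49 genes, each at its brightest probe set and ordered within its role. The horizontal axis is the log2 fold change of differentiating over undifferentiated cells, and lines are 95% intervals from limma. The filled point is Fzd5 at -1.67, the only gene with an adjusted p under 0.1, and Fzd2 at 1.72 has an interval from 0.85 to 2.60.

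The table holds no detection calls, so the signal of each gene was set beside that of 43 olfactory receptor probe sets, as a yardstick of low signal in a cell that is not known to use these genes. Their 95th percentile was 5.37. Probe sets differ in affinity, so a value under it is not a proof of absence, and a fold change between such values can understate a change. The higher of the group means was above 5.37 for 29 of the 49 genes and not above it for 20. By role, it was 11 of 12 receptors, 6 of 9 antagonists and 6 of 19 ligands, with 1 of 4 R-spondins (Rspo1) and all of the Axin and Tcf/Lef genes. The ligands above it were Wnt4, Wnt6, Wnt7a, Wnt7b, Wnt9a and Wnt16. The 20 genes at or under the yardstick had log2 fold changes between -0.39 and 0.45, and none of them passed (smallest adjusted p = 0.348, for Wnt2).

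**Figure D2:**
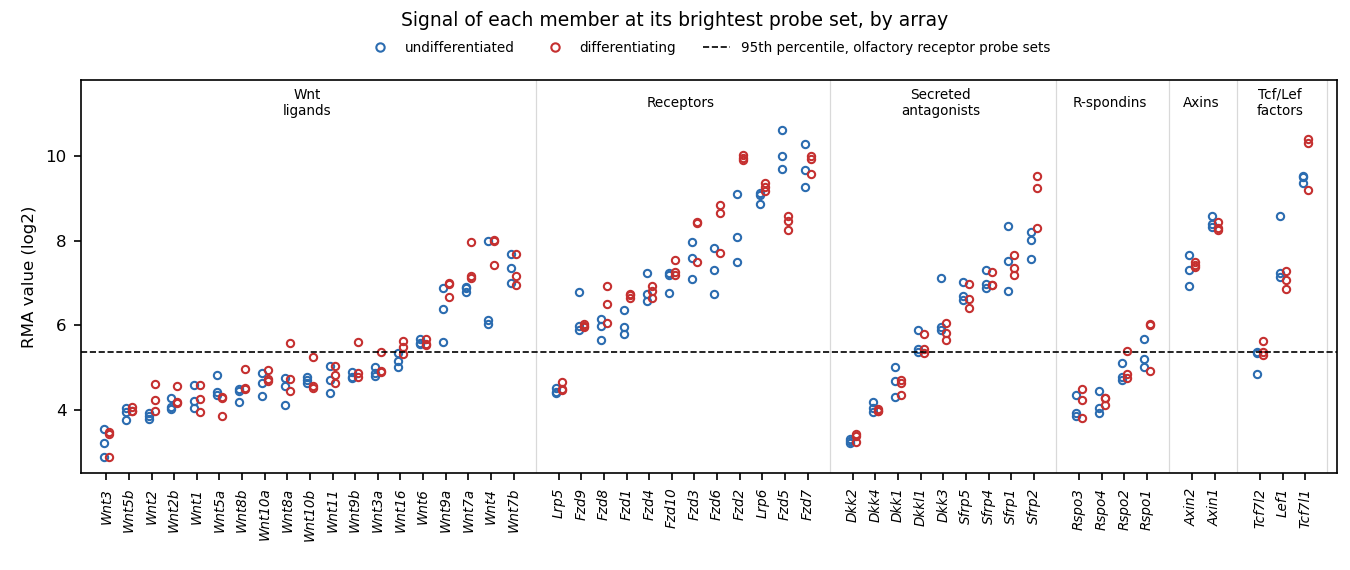
RMA values (log2, vertical axis) of each of the 49 genes at its brightest probe set, 1 circle per array, undifferentiated in blue and differentiating in red, grouped by role. The dashed line is 5.37, the 95th percentile of the olfactory receptor probe sets, which 13 of 19 Wnt ligands and 1 of 12 receptors do not exceed in either group mean.

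The Frizzled genes differed among themselves in direction. Fzd2 had the largest positive difference of the 49 genes, with 9.90, 9.94 and 10.01 in differentiating replicates 1 to 3 and 7.50, 9.10 and 8.08 in undifferentiated replicates 1 to 3. All differentiating arrays were above all undifferentiated arrays, and undifferentiated replicate 2 was the nearest to them. The difference was 3.30-fold higher and did not pass (log2 fold change 1.72, standard error 0.37, adjusted p = 0.115). Its other probe sets gave log2 fold changes of 1.79 (adjusted p = 0.12) and 1.05 (adjusted p = 0.236). Without undifferentiated replicate 2, Fzd2 was 4.47-fold higher and passed (adjusted p = 0.0224). Leaving out any other single array gave 2.57-fold to 3.36-fold higher with no call.

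Fzd6, a receptor known for planar polarity in skin and hair, had 7.71, 8.65 and 8.84 in differentiating and 6.74, 7.83 and 7.31 in undifferentiated cells. Differentiating replicate 1 lay under undifferentiated replicate 2, so the groups overlapped (log2 fold change 1.11, standard error 0.37, adjusted p = 0.257). Fzd6 had log2 fold changes of 1.46 without differentiating replicate 1 and 1.38 without undifferentiated replicate 2, and passed in neither fit. Its other probe sets separated the groups without passing, at 5.86 to 6.27 against 4.99 to 5.75 (log2 fold change 0.76, adjusted p = 0.198) and at 5.09 to 5.77 against 4.81 to 4.91 (0.49, adjusted p = 0.338). Fzd1, singled out after its values were seen, had 6.74, 6.70 and 6.65 in differentiating and 5.78, 6.36 and 5.95 in undifferentiated cells. The groups did not overlap, and the difference of 0.66 did not pass (adjusted p = 0.15). Without undifferentiated replicate 2 it was 0.83 and passed (adjusted p = 0.0559).

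The other receptors showed smaller differences. Fzd7 had 9.92, 9.99 and 9.57 in differentiating and 10.28, 9.27 and 9.67 in undifferentiated cells. The undifferentiated arrays enclosed the differentiating ones, and the 95% interval of the log2 fold change ran from -0.54 to 0.71. Fzd3 (0.57, adjusted p = 0.509), Fzd8 (0.58, adjusted p = 0.366) and Fzd10 (0.27, adjusted p = 0.546) had higher means in differentiating cells. Fzd4 (-0.06, adjusted p = 0.926) and Fzd9 (-0.24, adjusted p = 0.728) had lower means. The other Fzd3 probe sets did not show the rise, with log2 fold changes between -0.14 and 0.10. Those of Fzd4 went the other way (0.16 and 0.12). The co-receptor gene Lrp6, singled out after its values were seen, had 9.16, 9.27 and 9.35 in differentiating and 8.87, 9.07 and 9.12 in undifferentiated cells, with no overlap (log2 fold change 0.24, adjusted p = 0.46), while its second probe set overlapped (0.12, adjusted p = 0.795). Lrp5, at 4.40 to 4.66 on all arrays, lay under the yardstick.

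**Figure D3:**
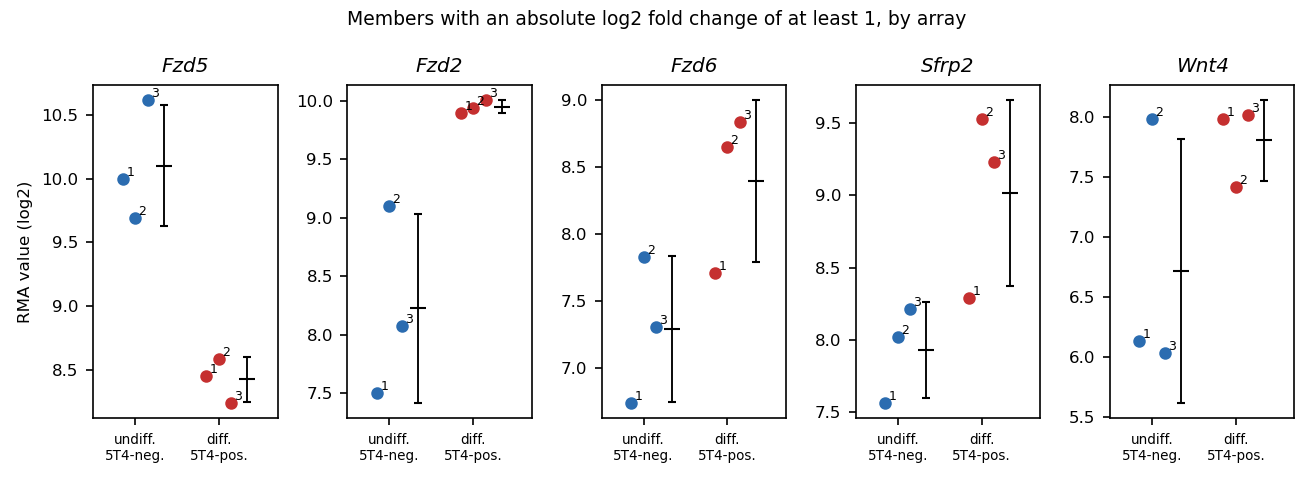
The 5 genes with a log2 fold change of at least 1 in size. Each point is the RMA value of an array (log2, vertical axis, scaled by gene) with its replicate number, blue for undifferentiated and red for differentiating cells. Black marks are the mean and SD of 3 arrays. Fzd5, Fzd2 and Sfrp2 separate the groups, while undifferentiated replicate 2 lies among the differentiating arrays for Wnt4 (7.99).

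Of the ligands, Wnt4, known from kidney and gonad development, had the largest difference and the widest spread among undifferentiated cells. It had 7.99, 7.42 and 8.02 in differentiating replicates 1 to 3 and 6.13, 7.99 and 6.03 in undifferentiated replicates 1 to 3. Undifferentiated replicate 2 lay within the differentiating range, and the other undifferentiated arrays lay more than 1 log2 unit under it. With all arrays the log2 fold change was 1.09 (standard error 0.52, adjusted p = 0.421). Without undifferentiated replicate 2 it was 1.73, or 3.32-fold higher, and passed (standard error 0.22, adjusted p = 0.034). Leaving out the array nearest to the differentiating ones widens the difference by construction, so this call is no independent support. Some markers of other cell types were also high on this array and others were not. Of 8 fibroblast markers, the collagen gene Col1a2 had 8.44 in undifferentiated replicate 2, against 5.55 and 6.51 in replicates 1 and 3 and 7.41 to 9.34 in differentiating cells, and Col1a1, Col3a1 and Twist2 were likewise highest there among undifferentiated arrays. Thy1 was lowest there (5.21 against 7.24 and 5.45), as was Pdgfra, which with Lum lay under the yardstick on every array. The summed level of the 8 was 46.54 in undifferentiated replicate 2, 41.94 and 42.41 in the other undifferentiated arrays and 45.06 to 49.84 in differentiating cells. Of 7 extraembryonic endoderm markers, Dab2 had 7.45, against 5.63 and 5.94, and 7.89 to 8.58 in differentiating cells. Ttr (5.99 against 5.94 and 5.57) and Sox17 (5.20 against 5.25 and 5.24) did not stand out there, and Gata4, Gata6, Foxa2 and Afp lay under the yardstick on every array. Their summed level, which differed mainly through Dab2, was 38.35, against 35.69 and 36.01, and 38.97 to 39.19. No member of the fibroblast or extraembryonic endoderm list passed the test. The summed level of 5 primitive streak markers was 24.95 in undifferentiated replicate 2, against 25.69 and 25.19, and 25.19 to 26.01 in differentiating cells. Of the 5, Mixl1, Evx1 and Gsc lay under the yardstick on every array. For 6 neuroectoderm markers the summed level was 33.92, against 33.85 and 35.85, and 30.13 to 33.09. Neurog1 and Olig2 lay under the yardstick on every array. Among undifferentiated arrays, Sox1 was highest in replicate 2 (5.97 against 4.72 and 5.80) and Pax6 was lowest there (7.13 against 7.70 and 8.07). Of the 6 neuroectoderm markers, Neurod1 passed as lower (log2 fold change -1.35, adjusted p = 0.0693). The part of any of these markers in the Wnt4 values was not tested.

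Wnt7b had 7.69, 6.95 and 7.15 in differentiating and 7.34, 7.67 and 7.00 in undifferentiated cells, and the groups overlapped (log2 fold change -0.07, adjusted p = 0.926). Wnt7a, singled out after its values were seen, had 7.97, 7.17 and 7.12 in differentiating and 6.79, 6.87 and 6.91 in undifferentiated cells. The groups did not overlap and the difference did not pass (0.57, adjusted p = 0.351), and its dimmer probe sets went the other way (-0.16 and -0.08). Without differentiating replicate 1 the difference of Wnt7a at its brightest probe set was 0.29 (adjusted p = 0.3). Wnt9a had a difference of 0.58 with overlapping arrays (adjusted p = 0.48). Wnt3, Wnt3a and Wnt8a, ligands known from the primitive streak of the embryo, had differences of 0.05, 0.17 and 0.45, and the signal of each lay under the yardstick in both group means. So did that of Wnt5a, a ligand known for signalling without beta-catenin (-0.39, adjusted p = 0.42), although its arrays did not overlap. The other Wnt5a probe sets overlapped, with log2 fold changes of 0.09, -0.06 and -0.00. Wnt2 (0.42, adjusted p = 0.348) likewise lay under the yardstick in both group means and was separated. In the reference annotation, 4 pairs of these ligands are direct neighbours among protein-coding genes, namely Wnt6 with Wnt10a on chromosome 1, Wnt3a with Wnt9a and Wnt9b with Wnt3 on chromosome 11, and Wnt10b with Wnt1 on chromosome 15. Of these 8 genes Wnt6 and Wnt9a had a signal above the yardstick, and none passed.

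Sfrp2, which encodes a secreted Wnt-binding protein, had the largest difference among the antagonists. It had 8.29, 9.53 and 9.23 in differentiating and 7.56, 8.02 and 8.21 in undifferentiated cells. The groups did not overlap, differentiating replicate 1 was the array nearest to the undifferentiated cells, and the difference did not pass (log2 fold change 1.09, standard error 0.33, adjusted p = 0.226). Without differentiating replicate 1 Sfrp2 was 2.73-fold higher and passed (adjusted p = 0.0722). Sfrp1, which encodes another protein of this family, had 7.34, 7.65 and 7.19 in differentiating and 8.34, 6.81 and 7.52 in undifferentiated cells. Undifferentiated replicates 1 and 2 were the highest and the lowest of the 6 arrays, and the 95% interval of the log2 fold change ran from -1.02 to 0.70. Dkk3 had 7.11 in undifferentiated replicate 1 and 5.65 to 6.06 on the other arrays, and its second probe set had 7.16 there and 5.28 to 6.12 elsewhere. Thus undifferentiated replicate 1 stood alone for Dkk3 (log2 fold change -0.47, adjusted p = 0.598). Dkk1, the LRP antagonist known as a Wnt target, had values between 4.29 and 5.00 on all arrays, under the yardstick. The 8 antagonists other than Sfrp2 had log2 fold changes between -0.47 and 0.10. Of the R-spondins, Rspo1 had 4.92, 6.00 and 6.03 in differentiating and 5.67, 5.19 and 5.02 in undifferentiated cells, which overlapped (0.36, adjusted p = 0.698). Rspo2 had 5.39, 4.84 and 4.74 in differentiating and 5.11, 4.71 and 4.77 in undifferentiated cells, a difference of 0.13 (adjusted p = 0.838).

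Downstream, Axin2, a feedback inhibitor that beta-catenin induces and a common readout of the pathway, had 7.49, 7.42 and 7.37 in differentiating and 6.93, 7.66 and 7.31 in undifferentiated cells. The undifferentiated arrays enclosed the differentiating ones, and the 95% interval of the log2 fold change ran from -0.32 to 0.57. Axin1, the scaffold of the destruction complex, had 8.30, 8.44 and 8.24 in differentiating and 8.59, 8.33 and 8.40 in undifferentiated cells (95% interval -0.41 to 0.18). Tcf7l1 had 9.19, 10.40 and 10.30 in differentiating and 9.35, 9.50 and 9.53 in undifferentiated cells. Differentiating replicates 2 and 3 were above all undifferentiated arrays and replicate 1 was under them all, and the difference of 0.50 did not pass (standard error 0.31, adjusted p = 0.55). The second Tcf7l1 probe set separated the groups, with 9.20, 9.62 and 9.39 in differentiating and 9.04, 9.15 and 9.12 in undifferentiated cells, also without passing (0.30, adjusted p = 0.402). Without differentiating replicate 1 the difference at the brightest probe set was 0.89 and passed (adjusted p = 0.0489). Lef1, which encodes an activating factor of the family, had 7.27, 6.85 and 7.07 in differentiating and 7.13, 7.24 and 8.57 in undifferentiated cells. Undifferentiated replicate 3 stood alone, on its second probe set as well (6.93 against 4.90 to 5.56), and the log2 fold change of -0.59 (adjusted p = 0.565) was -0.12 without that array. Tcf7l2 had a difference of 0.24 (adjusted p = 0.627), with all 4 of its probe sets in the same direction.

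Of the 49 genes, 30 had several probe sets, and for 20 of these all probe sets had a log2 fold change of the same sign. Fzd5, Fzd2, Fzd6, Fzd1 and Wnt4 were among the 20, and Sfrp2 has 1 probe set. Among the 5 genes with a log2 fold change of at least 1 in size, undifferentiated replicate 2 was the undifferentiated array nearest to the differentiating mean for 4, all but Sfrp2. Over all genes with such a change it was the nearest for 549 of 747, or 73.5%. Without undifferentiated replicate 2, 3 of the 49 genes passed as higher (Fzd2, Wnt4 and Fzd1), against 2.36% of all genes, and 1 as lower (Fzd5), against 2.31%. Without differentiating replicate 1, Tcf7l1 and Sfrp2 passed as higher, against 1.52% of all genes, and Fzd5 as lower, against 1.6%. In the fits that left out replicate 2 or replicate 3 of the differentiating cells, or replicate 3 of the undifferentiated cells, 0 of the 49 genes passed, and of all 18193 genes 0, 3 and 1 did (0.0%, 0.0165% and 0.0055%).

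**Figure D4:**
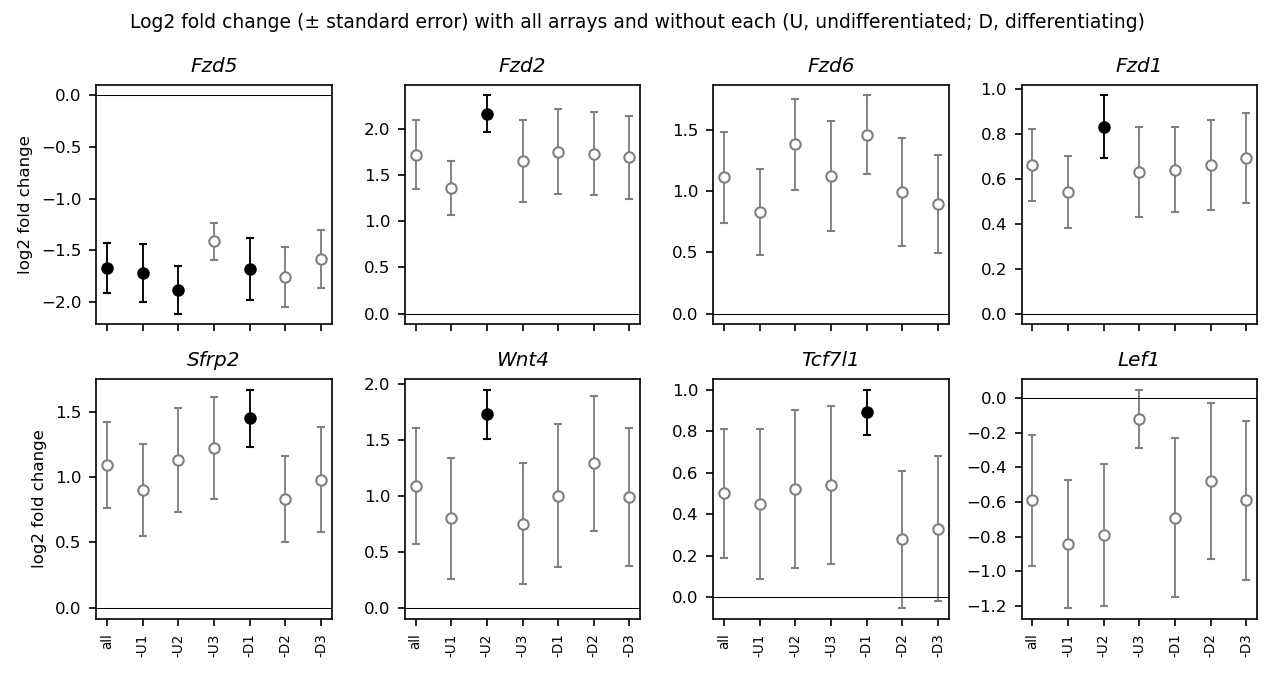
Log2 fold change of differentiating over undifferentiated cells (vertical axis, scaled by gene) with its standard error, for all arrays and without each array in turn. U and D are undifferentiated and differentiating replicates, and filled points have an adjusted p under 0.1. Fzd5 lies between -1.88 and -1.41 throughout, and Wnt4 ranges from 0.75 to 1.73.

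Of the 5 genes with a difference of at least 1 in size, the promoter table gave the sequence before the start of Fzd5, Wnt4 and Sfrp2. These are shown because they stand for the receptor that fell and for a ligand and an antagonist with higher means. The 250 bases before each start are from RefSeq on GRCm38.p6, read 5′ to 3′ on the strand of the gene, at chr1:64737751-64738000 (minus strand), chr4:137277385-137277634 (plus strand) and chr3:83766071-83766320 (plus strand). Capitals mark the GC box GGGCGG on either strand, which Sp-family factors are known to bind.
Fzd5: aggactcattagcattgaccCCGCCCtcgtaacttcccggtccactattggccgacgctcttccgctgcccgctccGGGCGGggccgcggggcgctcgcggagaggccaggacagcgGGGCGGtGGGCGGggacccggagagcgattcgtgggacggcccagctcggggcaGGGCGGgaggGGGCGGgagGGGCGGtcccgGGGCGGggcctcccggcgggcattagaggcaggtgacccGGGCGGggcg
Wnt4: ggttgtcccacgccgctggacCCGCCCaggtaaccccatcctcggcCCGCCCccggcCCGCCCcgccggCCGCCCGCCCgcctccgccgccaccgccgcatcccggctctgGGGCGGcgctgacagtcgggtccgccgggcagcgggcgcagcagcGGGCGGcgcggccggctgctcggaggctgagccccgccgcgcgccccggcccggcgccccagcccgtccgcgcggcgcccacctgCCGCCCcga
Sfrp2: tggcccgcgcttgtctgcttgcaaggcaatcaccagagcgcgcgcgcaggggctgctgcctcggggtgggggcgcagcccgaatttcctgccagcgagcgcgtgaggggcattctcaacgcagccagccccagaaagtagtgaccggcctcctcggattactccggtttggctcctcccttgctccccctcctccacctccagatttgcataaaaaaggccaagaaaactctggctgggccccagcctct
Fzd5 had 9 GC boxes, Wnt4 had 8, overlapping ones counted separately, and Sfrp2 had 0. The GC content was 76.4%, 85.2% and 63.6%. Of 32851 promoter windows, 32.7% held a GC box, against 27 of the 39 windows (69.2%) that belong to 32 of the 49 genes, whose median GC content was 66.8% against 52.4% over all windows. For Tcf/Lef factors the letters CTTTGAA were searched on both strands, and likewise CTTTGAT and also CTTTGTA and also CTTTGTT. They occurred in 6 of the 39 windows (15.4%) and in 14.8% of all windows. The STAT letters TTCNNNGAA, where N is any base, occurred in 1 of the 39 windows (2.56%) and in 7.02% of all windows. None of the windows of Fzd5, Wnt4 and Sfrp2 held either. The letters describe these windows and do not locate a bound site.

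Other genes of the pathway were taken from lists, 107 measured genes in all beside the 49. Of these, 4 passed as lower and 0 passed as higher, and at an unadjusted p under 0.05 in limma 14 were lower and 9 higher. Together the latter are 21.5%, near the 17.2% of all genes, of which 1.45% passed as lower and 0.797% as higher. Porcn, which encodes the acyltransferase that Wnt proteins need for secretion, was the only one of 11 genes of Wnt acylation, secretion and inactivation to pass. It had 9.09, 8.20 and 8.59 in undifferentiated and 7.07, 5.86 and 5.60 in differentiating replicates 1 to 3. The groups did not overlap, and Porcn was 5.46-fold lower in differentiating cells (log2 fold change -2.45, standard error 0.41, adjusted p = 0.0755). Wls, which encodes the carrier that brings acylated Wnt proteins to the cell surface and was singled out after its values were seen, had 9.18, 8.69 and 9.12 in differentiating and 4.55, 8.92 and 6.73 in undifferentiated cells. As for Wnt4, undifferentiated replicate 2 lay within the differentiating range. The log2 fold change of Wls was 2.26 with all arrays (adjusted p = 0.374) and 3.36 without that array, when it passed (adjusted p = 0.063).

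Of 38 intracellular components and regulators, 1 passed, as lower. This was Tle5, a short relative of the Groucho corepressors that Tcf/Lef factors recruit, with 8.77, 7.57 and 8.07 in undifferentiated and 6.39, 6.37 and 5.81 in differentiating cells. It was 3.86-fold lower with no overlap (log2 fold change -1.95, standard error 0.32, adjusted p = 0.0719). The median log2 fold change of these 38 genes was -0.01, and beta-catenin itself (Ctnnb1) had a difference of 0.06 (adjusted p = 0.858). Of 25 other cell surface and secreted regulators, 1 passed, as lower. This was Ror2, a receptor tyrosine kinase known to bind Wnt5a, with 6.75, 6.71 and 6.60 in undifferentiated and 6.14, 6.05 and 6.17 in differentiating cells (log2 fold change -0.57, standard error 0.11, adjusted p = 0.0937). Tpbg had 6.71, 7.52 and 7.97 in differentiating and 5.94, 6.76 and 5.68 in undifferentiated cells, and the groups overlapped only at differentiating replicate 1 and undifferentiated replicate 2 (log2 fold change 1.27, adjusted p = 0.22). The other Tpbg probe sets separated the groups without passing, with log2 fold changes of 1.39 (adjusted p = 0.118) and 0.38 (adjusted p = 0.237). None of 14 planar cell polarity genes passed (median log2 fold change 0.17), and Prickle1 had the smallest adjusted p (log2 fold change 1.84, adjusted p = 0.145). None of 21 beta-catenin target genes passed (median 0.01), and Fgf8, a growth factor gene, had the smallest adjusted p among them (1.73, adjusted p = 0.122). Arrays did not overlap for 6 of the 21 targets, against 23.5% of all genes. Of the 6, Fgf8 was the only one with higher values in differentiating cells. The other 5 were Ascl2 (-1.40, adjusted p = 0.278), Notum (-1.09, adjusted p = 0.201), Cdx1 (-0.59, adjusted p = 0.201), Msx2 (-0.58, adjusted p = 0.359) and Tdgf1 (-0.46, adjusted p = 0.307), with lower values. Of 4 pluripotency genes that Tcf7l1 is known to repress (Esrrb, Klf2, Tfcp2l1 and Nanog), Tfcp2l1 passed as lower. All 4 were lower on each differentiating array than on each undifferentiated array, where 23.5% of all genes were separated in either direction. Esrrb and Nanog are also among the 6 ES cell markers used above to check the cells. A part of Tcf7l1 in these values was not tested.

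The call of Porcn was lost without differentiating replicate 2 or 3 or undifferentiated replicate 1 or 3 (adjusted p from 0.101 to 0.339). That of Tle5 was lost without any one of the differentiating replicates or undifferentiated replicate 3 (adjusted p from 0.103 to 0.31). Ror2 did not pass without any single array (adjusted p from 0.103 to 0.377). The log2 fold changes ran from -2.90 to -2.16 for Porcn, -2.23 to -1.63 for Tle5 and -0.61 to -0.53 for Ror2. The fits without differentiating replicate 2 or 3 or undifferentiated replicate 3 are those that called 0 to 3 of all 18193 genes.

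**Figure D5:**
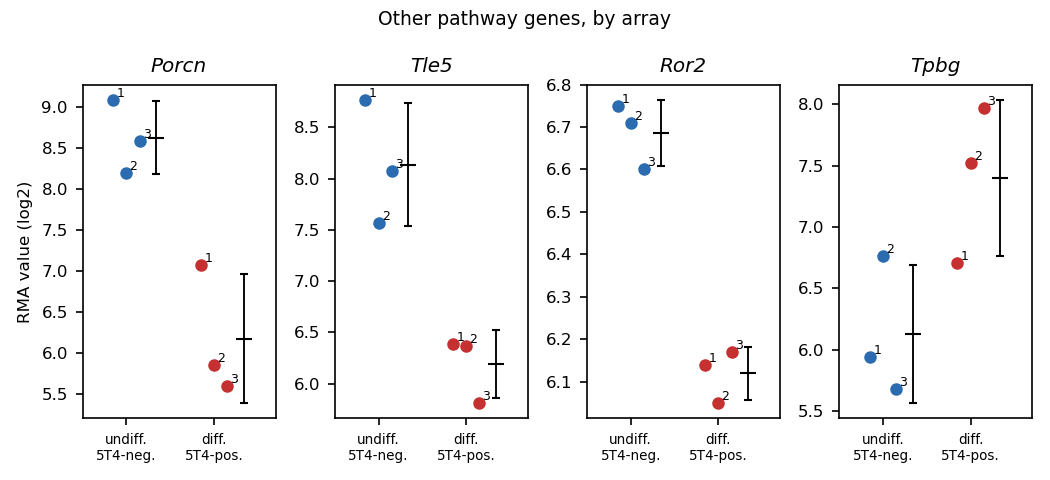
Porcn, Tle5, Ror2 and Tpbg, with RMA values of single arrays as points (log2, vertical axis, scaled by gene). Blue is undifferentiated and red differentiating, numbers are replicates, and black marks are the mean and SD of 3 arrays. Porcn, Tle5 and Ror2 separate the groups, and Tpbg in undifferentiated replicate 2 (6.76) lies just above differentiating replicate 1 (6.71).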

How the data were processed

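The deposited values of the 6 Affymetrix arrays are log2 values that the authors made by RMA (affy, version not stated), which corrects background, normalizes arrays to each other and gives 1 value for a probe set. Columns were matched to samples by label and used as deposited. Of 45101 probe sets, the 64 array controls were not used. The array medians lay between 5.54 and 5.65. The number of arrays limits the precision.

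Probe sets were named by the platform annotation, and all 49 symbols matched a RefSeq table (GRCm38.p6) by gene ID. limma 3.58.1 in R 4.3.3 was fitted to the 45037 probe sets with no replicate block, which the methods do not name. The threshold was an adjusted p under 0.1, and the steps were tested on simulated data.

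The genes, lists and tests were chosen with earlier results of these data known. Given with every array were genes that passed, those with a log2 fold change of at least 1 in size, and the 2 of highest mean in each role. From the lists, genes that passed and Tpbg were named by rule. Lrp6, Fzd1, Wnt7a, Wls, Ctnnb1, Prickle1, Fgf8, other target genes and the cell type markers were singled out after their values were seen. Deviations of same-numbered arrays from their group means had correlations of 0.21, -0.11 and 0.11. With so few arrays these cannot show whether the numbers pair the samples. The alternatives were a replicate block, a filter on dim probe sets, a second normalization, centring on array medians, array weights, a variance with trend and robust estimate, other thresholds, other probe set choices and each array left out.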

Additional observations from a re-analysis of the deposited data

How the results depend on the processing

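The count of the 49 genes called higher, 0 with limma at an adjusted p under 0.1, became 1 with the replicate number as a block (Fzd6), 1 with only probe sets above the median mean (Fzd2), 1 with a trended robust variance (Fzd2), 2 with the mean of all probe sets of a gene (Fzd2 and Fzd6) and 8 with array weights. The count called lower, 1, became 3 with array weights and 0 at an adjusted p under 0.05, where Fzd5 (log2 fold change -1.67) no longer passed. The 8 genes whose arrays did not overlap became 13 with the probe set of smallest p of each gene. The share of all genes under these alternatives, and the share separated with 1 array left out, was not counted. Whether these counts and those that follow are particular to the genes described therefore cannot be told. Of the 107 listed pathway genes, the count called higher, 0, became 1 with the block, 1 after a second quantile normalization, 1 with a trended robust variance, 3 with the mean of all probe sets and 14 with array weights, and that called lower, 4, became 13 with array weights and 0 at an adjusted p under 0.05. Leaving out 1 array at a time gave 0 to 3 of the 49 genes called higher, 0 to 1 lower, 8 to 18 separated, a median log2 fold change from 0.06 to 0.20, a log2 fold change of Fzd5 from -1.88 to -1.41 (adjusted p from 0.0324 to 0.29), 0 to 5 pathway genes higher and 0 to 4 lower, and 28 to 29 genes above the yardstick.

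Among the genes followed under each alternative, which are those named by rule with Fzd1 and Wls, the directions that reversed were those of Sfrp1 (0.21) and Axin1 (0.01) with array weights, Axin2 with the mean of all probe sets (-0.02) and with the probe set of smallest p (-0.17), Rspo2 without differentiating replicate 1 (-0.07), Wnt7b without differentiating replicate 2 (0.08) or undifferentiated replicate 2 (0.09), Fzd7 without undifferentiated replicate 2 (-0.15), and Sfrp1 (0.23) and Axin2 (-0.06) without undifferentiated replicate 1. Over all arrays left out in turn, the log2 fold change ran from -0.07 to 0.25 for Rspo2, -0.29 to 0.09 for Wnt7b, -0.15 to 0.36 for Fzd7, -0.53 to 0.23 for Sfrp1 and -0.06 to 0.30 for Axin2. None of these passed in either direction. Over all 49 genes, 18 had a log2 fold change of the opposite sign without at least 1 array. With all arrays these 18 lay between -0.24 and 0.15, and 0 of them passed in limma without any array. The cause of these changes was not tested. A signal near that of the olfactory receptor probe sets limits what can be said of 20 of the 49 genes.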
